A study of Mus musculus with 7 samples.

Results

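Kinesins are motor proteins that use ATP to move along microtubules or to take them apart. The genes described here are the kinesin heavy chains of the mouse, taken as every row of the expression table whose symbol is Kif followed by a number and at most 1 letter with its own number. This gave 37 genes of the 37975 listed. By their textbook roles 12 were placed in a mitotic class, 13 in a transport class and 12 in a class of microtubule dynamics and cilium. Cenpe and the Kifc genes are kinesins with other symbols and are given separately.

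The RNA came from 2-day myotubes, that is primary myoblasts after 48 hours in medium with 5% horse serum, and from growth myoblasts, the same kind of cell kept proliferating. Both carried an empty retroviral vector, and the myoblasts descended from satellite cells, the stem cells of muscle, that had been sorted out of mice aged 4 to 6 weeks. A ChIP (chromatin immunoprecipitation) library of 2-day myotubes gave the binding peaks of MyoD, a basic helix-loop-helix factor that drives the muscle programme. Each condition had 1 value per gene, so no difference below has a replicate check.

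In dividing cells mitotic kinesins push spindle poles apart, move chromosomes and build the midzone at which the cell is cut apart. Transport kinesins carry vesicles, mitochondria and other cargo toward microtubule plus ends in cells that divide and in cells that do not. A myoblast leaves the cell cycle before it fuses, and in the myotube the kinesin-1 motor with its light chains spaces the many nuclei along the fibre. Other kinesins shorten microtubules or work in the cilium, the antenna through which hedgehog signals are read.

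Levels are in FPKM, fragments per kilobase of transcript scaled to library size, which can be compared between genes. Calls, q-values and standard errors (SE) of log2 ratios come from the authors' deposited table, whose test was made by Cuffdiff, and a call means a q of at most 0.05. Log2 ratios are 2-day myotubes over growth myoblasts. By the authors' deposited table, 17.3% of the 15966 tested genes were called lower and 6.52% higher, and the median log2 ratio of those above 0 in both libraries was -0.41. The 5 myotube markers had calls higher and 4 of 4 markers of cycling cells calls lower, per the authors' deposited table. Of 4 myoblast markers, the authors' deposited table has Pax7 and Myf5 lower, Des, which muscle fibres also express, higher, and Myod1 without a call.

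The kinesin classes moved apart between the libraries. Mitotic kinesins summed to 27.6 FPKM in 2-day myotubes and 249 FPKM in growth myoblasts, a ratio of 0.111. Transport kinesins summed to 384 FPKM in 2-day myotubes and 299 FPKM in growth myoblasts, a ratio of 1.28. Genes of microtubule dynamics and cilium summed to 65.7 FPKM in 2-day myotubes and 130 FPKM in growth myoblasts. Mitotic members thus held 5.78% of the summed FPKM of the 37 genes in 2-day myotubes and 36.8% in growth myoblasts, while transport members held 80.4% in 2-day myotubes and 44.1% in growth myoblasts. Cenpe and the Kifc genes are outside this sum, here and in the shares of kinesin FPKM given below.

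**Figure D1:**
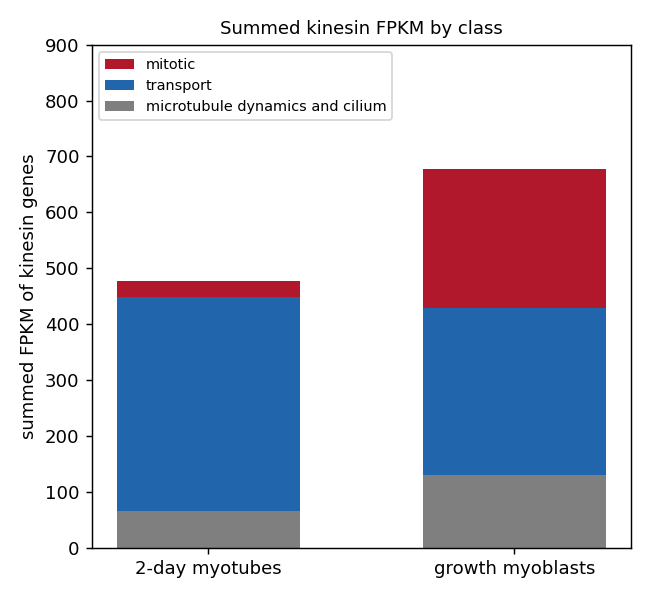
Summed FPKM of the 37 kinesin genes by class (stacked bars, linear axis from 0) in 2-day myotubes and growth myoblasts, 1 value per gene and library. The mitotic segment is 27.6 FPKM in 2-day myotubes and 249 FPKM in growth myoblasts, and the transport segment is 384 and 299 FPKM in the same order.

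By the authors' deposited table, 14 of the 32 tested kinesins were called lower, against 17.3% of tested genes, and 2 higher, against 6.52%. All 11 tested mitotic members were among the 14. None of 12 tested transport members was called either way by the authors' deposited table, where 23.9% of tested genes were. In the third class the authors' deposited table has 3 of 9 tested members lower and 2 higher, and the 3 calls lower were lost when log2 ratios were centred on the median of tested genes. On the log2(FPKM + 1) scale the median ratio was -2.67 for mitotic and 0.21 for transport members with a mean of at least 1 FPKM, a difference of -2.88, and it was -0.37 over all 15146 tested genes with that mean. With 1 value per gene the difference between the classes has no test. The same centring kept the 11 mitotic members lower, as it did 10.3% of genes, and made 4 kinesins higher, against 10.2% of genes; among these were the transport members Kif5b and Kif1b. The transport median was -0.051 without the 3 members whose locus overlaps another tested gene (Kif5b, Kif3c and Kif17), so its sign rests on them.

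**Figure D2:**
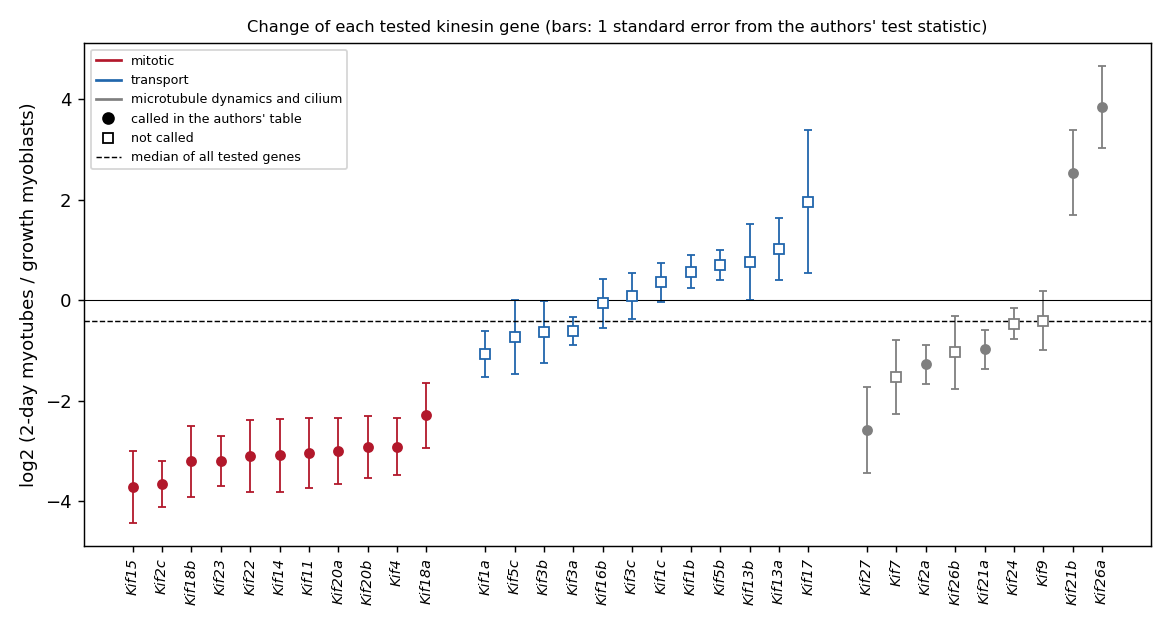
Log2 ratio of 2-day myotubes over growth myoblasts for the 32 tested kinesins by class; bars are 1 standard error from the authors' deposited table, filled circles are called genes, open squares are not called, and the dashed line is the median of tested genes at -0.41. All 11 mitotic members lie between -3.71 and -2.29, and the 12 transport members lie between -1.06 and 1.96.

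All 11 tested mitotic members fell, and whether they fell by different factors was not tested. Growth myoblasts had between 2.75 and 52.9 FPKM of each, and no mitotic member reached 10 FPKM in 2-day myotubes, where the highest was at 6.60 FPKM. The log2 ratios ran from -3.71 to -2.29 in the authors' deposited table, that is from 13.1-fold to 4.90-fold lower, with SEs of 0.46 to 0.73; the median was -3.09. Markers of cycling cells fell alongside, with a summed level of 32.7 FPKM in 2-day myotubes and 299 FPKM in growth myoblasts. Markers of other cell types were low and also lower: 4 fibroblast markers summed to 1.47 FPKM in 2-day myotubes and 7.84 FPKM in growth myoblasts, with Dpt at 0 in both, and 3 endothelium markers summed to 0.289 FPKM in 2-day myotubes and 4.69 FPKM in growth myoblasts. Of their 3 tested members the authors' deposited table has Thy1 and Pecam1 lower and Col1a1 without a call. The part of any of these markers in the result was not tested, and in a bulk sample fewer dividing cells and less of an RNA per cell cannot be told apart. The loci of 4 mitotic members overlap other tested genes, which makes their own reads less certain: Kif20a with Cdc23, Kif4 with Pdzd11, Kif18a with Mettl15 and Kif18b with 6 genes.

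Among motors that build the spindle, Kif11, the bipolar motor that slides antiparallel microtubules and separates the poles, was at 1.95 FPKM in 2-day myotubes and 16.1 FPKM in growth myoblasts (log2 -3.04, SE 0.70, q = 0.000195, the authors' deposited table). Kif15, which holds the spindle bipolar when Kif11 is blocked, was at 0.793 FPKM in 2-day myotubes and 10.4 FPKM in growth myoblasts (log2 -3.71, SE 0.72, q = 5.96e-06, the authors' deposited table). Its 13.1-fold fall was the largest of any kinesin tested. Kif2c, which removes tubulin from microtubule ends at the kinetochore, was at 4.10 FPKM in 2-day myotubes and 51.6 FPKM in growth myoblasts (log2 -3.65, SE 0.46, q = 2.06e-13, the authors' deposited table). Kif18a, which damps the oscillation of chromosomes at the spindle equator, had the smallest fall, at 0.873 FPKM in 2-day myotubes and 4.28 FPKM in growth myoblasts (log2 -2.29, SE 0.64, q = 0.00299, the authors' deposited table). Kif18b, its relative at the ends of astral microtubules, was at 2.38 FPKM in 2-day myotubes and 21.9 FPKM in growth myoblasts (q = 9.16e-05, the authors' deposited table).

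The motors that bind chromosome arms followed. Kif4, which also works at the spindle midzone, was at 2.80 FPKM in 2-day myotubes and 21.1 FPKM in growth myoblasts (log2 -2.91, SE 0.57, q = 9.31e-06, the authors' deposited table). Kif22 was at 2.82 FPKM in 2-day myotubes and 24.2 FPKM in growth myoblasts (log2 -3.10, SE 0.72, q = 0.000203, the authors' deposited table). Both have a pseudogene that may take some of their reads. Kif22-ps was at 0.125 FPKM in 2-day myotubes and 1.08 FPKM in growth myoblasts, and Kif4-ps was listed at 0 in 2-day myotubes and at 0.160 FPKM in growth myoblasts.

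Motors of the midzone and of cytokinesis fell as well, and among them were the 2 mitotic members with the highest level in 2-day myotubes. Kif20a, which brings the chromosomal passenger complex to the midzone, was at 6.60 FPKM in 2-day myotubes and 52.9 FPKM in growth myoblasts (8.01-fold lower, log2 SE 0.66, q = 7.91e-05, the authors' deposited table). Kif23, the motor subunit of centralspindlin, was at 4.22 FPKM in 2-day myotubes and 38.7 FPKM in growth myoblasts (log2 -3.20, SE 0.50, q = 8.97e-09, the authors' deposited table). Kif20b, a motor of late cytokinesis, was at 0.724 FPKM in 2-day myotubes and 5.47 FPKM in growth myoblasts (q = 3.74e-05, the authors' deposited table). Kif14, which anchors citron kinase at the midbody, was the least abundant tested mitotic member, at 0.323 FPKM in 2-day myotubes and 2.75 FPKM in growth myoblasts (q = 0.000328, the authors' deposited table). Kif2b, a spindle motor known mainly from testis, was listed at 0 in both libraries and not tested.

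**Figure D3:**
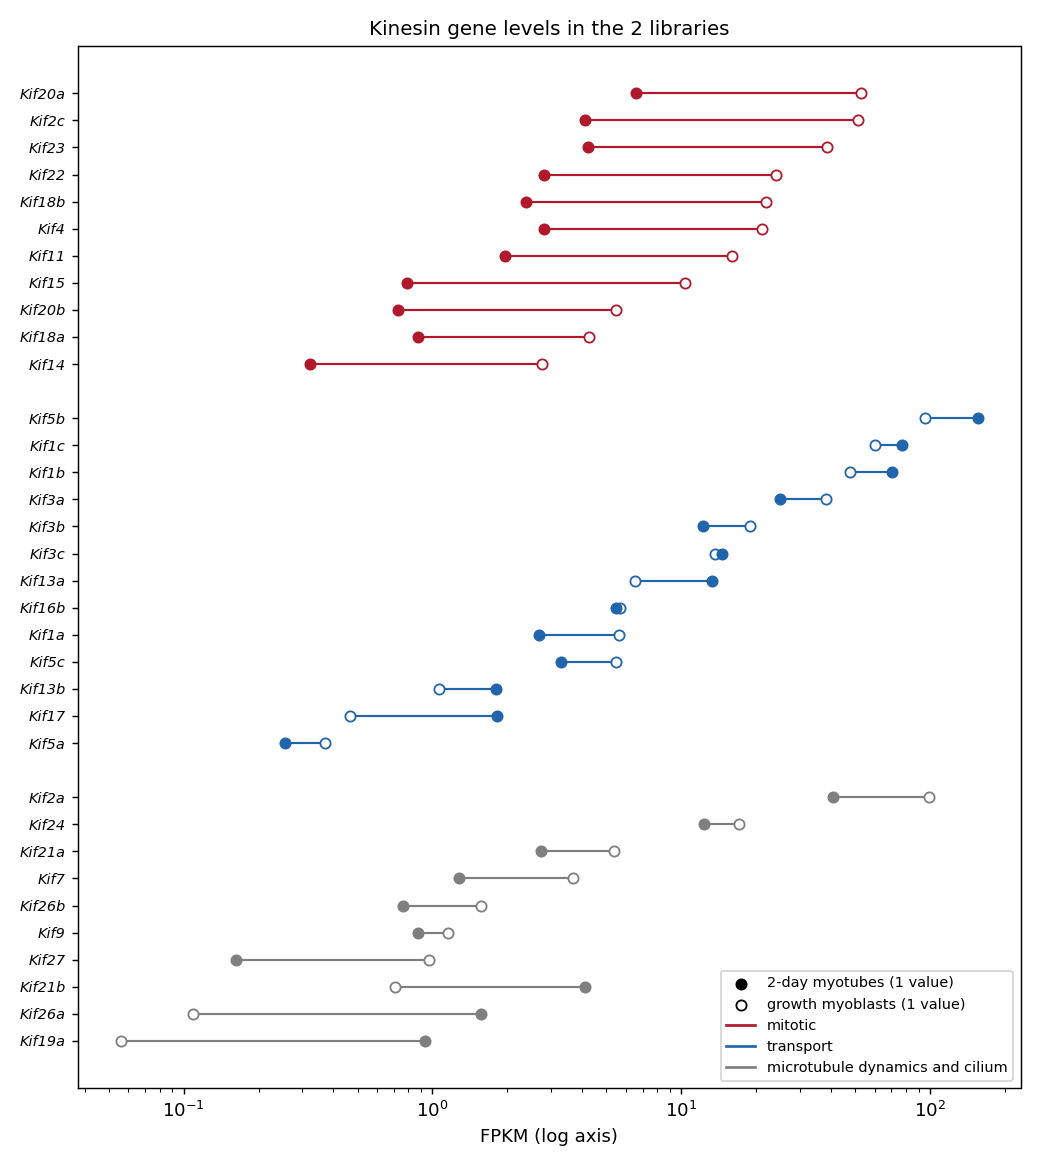
FPKM (log axis) of the 34 kinesin genes above 0 in both libraries, with filled circles for 2-day myotubes and open circles for growth myoblasts, 1 value each, grouped by class. Filled circles lie left of open circles for every mitotic gene, while transport genes such as Kif5b (156 and 95.3 FPKM) and Kif3a (24.97 and 38.1 FPKM) lie on either side.

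The partners that mitotic kinesins work with moved the same way. By the authors' deposited table, 16 of 17 tested partners on a list drawn up by role were called lower, against 17.3% of all tested genes. There were 0 called higher, against 6.52%, and the median log2(FPKM + 1) ratio was -2.65. Mapre1, a general microtubule end-binding protein, was the partner not called, at 107 FPKM in 2-day myotubes and 158 FPKM in growth myoblasts. The largest falls were those of Kntc1 (log2 -3.66), Plk1 (log2 -3.42) and Cdca8 (log2 -3.31) in the authors' deposited table. Racgap1, which forms centralspindlin with Kif23, was at 34.4 FPKM in 2-day myotubes and 170 FPKM in growth myoblasts (log2 -2.30, SE 0.31, the authors' deposited table), and Prc1, which recruits Kif4, was at 15.2 FPKM in 2-day myotubes and 100.1 FPKM in growth myoblasts (log2 -2.72, SE 0.38, the authors' deposited table); these 2 were named after their values were seen. Among 4 tested kinesins outside the symbol rule the authors' deposited table has 3 lower, where 17.3% of all tested genes were. These 3 kinesins were the kinetochore motor Cenpe, at 1.00 FPKM in 2-day myotubes and 9.57 FPKM in growth myoblasts, the minus-end motor Kifc1, at 6.55 and 45.0 FPKM in the same order, and Kifc5b, a close copy of Kifc1 whose reads may not be separable from it. Kifc3, a minus-end motor of the cortex, was at 24.4 FPKM in 2-day myotubes and 25.7 FPKM in growth myoblasts and was not called.

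Many genes of the G2 and M phases carry a CHR element (cell cycle genes homology region) near their start, often with a CCAAT box some bases before it, and are repressed through it by the DREAM complex when cells stop dividing. Promoter windows of 300 bases (250 before and 50 after the annotated start) were found in RefSeq, build GRCm38.p6, for 31 of the 37 members. The windows of Kif20a, Kif5b, Kif5a, Kif13b, Kif19a and Kif21b were not found. Counts here are of genes, and a gene with more than 1 window counted where any of them held a match. The letters TTTGAA on either strand were present for 9 of 11 mitotic genes (81.8%), for 1 of 10 transport genes (10%) and for 2 of 10 genes of the third class (20%). The transport gene was Kif1a, with the match in only 1 of its windows. The same letters were present for 20.2% of all 27025 genes with a window, for 14.1% of the 8974 of them that were tested and for 17.9% of the 1878 genes with a window that the authors' deposited table calls lower. Of the 10 mitotic genes called lower with a window, 9 had a match and Kif18a had none, and Kif2b, listed at 0 in both libraries, had none either. In 7 of the 11 mitotic windows a match began within 30 bases of the start, which held for 3.66% of all genes and 5.01% of genes called lower; that distance was chosen after the matches were seen. The letters CCAAT on either strand were present for 7 of 11 mitotic genes (63.6%), Kif2b among them. They were present for 3 of 10 transport genes (30%) and for 4 of 10 genes of the third class (40%). Of all genes with a window 41.1% had them, as did 43.3% of tested genes and 46.4% of genes called lower. A match is a description of letters and not a site shown to be bound.

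Shown here are 4 mitotic promoters in which both motifs occur close to the start and, for contrast, that of the transport gene Kif1c, which holds neither. Capitals mark both motifs on either strand, each sequence runs 5' to 3' on the strand of the gene, and the annotated start follows the first 250 bases. In Kif11 the CHR letters begin 19 bases before the start and the CCAAT letters 45 before, and in Kif22 they begin 17 and 54 before.
Kif11, chr19:37376132-37376431, plus strand: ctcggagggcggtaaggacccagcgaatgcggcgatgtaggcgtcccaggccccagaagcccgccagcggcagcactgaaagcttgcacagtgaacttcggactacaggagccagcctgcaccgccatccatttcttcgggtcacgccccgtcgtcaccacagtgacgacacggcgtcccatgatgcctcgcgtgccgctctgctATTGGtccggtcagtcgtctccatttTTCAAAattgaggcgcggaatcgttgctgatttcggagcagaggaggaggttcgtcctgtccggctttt
Kif22, chr7:127042371-127042670, minus strand: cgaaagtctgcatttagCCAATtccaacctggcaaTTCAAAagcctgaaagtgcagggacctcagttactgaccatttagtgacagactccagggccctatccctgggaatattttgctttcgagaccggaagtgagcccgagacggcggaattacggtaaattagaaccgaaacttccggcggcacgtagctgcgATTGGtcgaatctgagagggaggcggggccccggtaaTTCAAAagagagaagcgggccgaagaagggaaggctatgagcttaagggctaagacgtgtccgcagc
Kif18b, chr11:102925075-102925374, minus strand: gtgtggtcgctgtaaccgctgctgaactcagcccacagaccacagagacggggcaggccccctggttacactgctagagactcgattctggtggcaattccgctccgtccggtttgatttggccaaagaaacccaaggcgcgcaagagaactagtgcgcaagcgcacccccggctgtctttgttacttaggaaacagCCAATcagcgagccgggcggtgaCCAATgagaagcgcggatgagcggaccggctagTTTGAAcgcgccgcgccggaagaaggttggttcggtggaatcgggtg
Kif23, chr9:61946750-61947049, minus strand: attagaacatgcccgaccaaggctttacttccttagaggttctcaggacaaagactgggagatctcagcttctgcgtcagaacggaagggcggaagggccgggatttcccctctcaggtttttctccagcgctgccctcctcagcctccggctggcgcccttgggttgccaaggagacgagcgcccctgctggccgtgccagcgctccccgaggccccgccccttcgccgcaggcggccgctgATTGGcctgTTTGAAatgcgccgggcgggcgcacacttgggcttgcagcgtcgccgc
Kif1c, chr11:70700298-70700597, plus strand: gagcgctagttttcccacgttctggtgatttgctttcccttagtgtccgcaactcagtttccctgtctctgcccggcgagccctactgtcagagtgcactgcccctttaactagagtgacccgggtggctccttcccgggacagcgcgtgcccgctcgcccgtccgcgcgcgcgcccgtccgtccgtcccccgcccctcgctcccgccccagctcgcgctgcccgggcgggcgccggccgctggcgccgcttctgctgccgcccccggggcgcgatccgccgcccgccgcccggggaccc

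**Figure D4:**
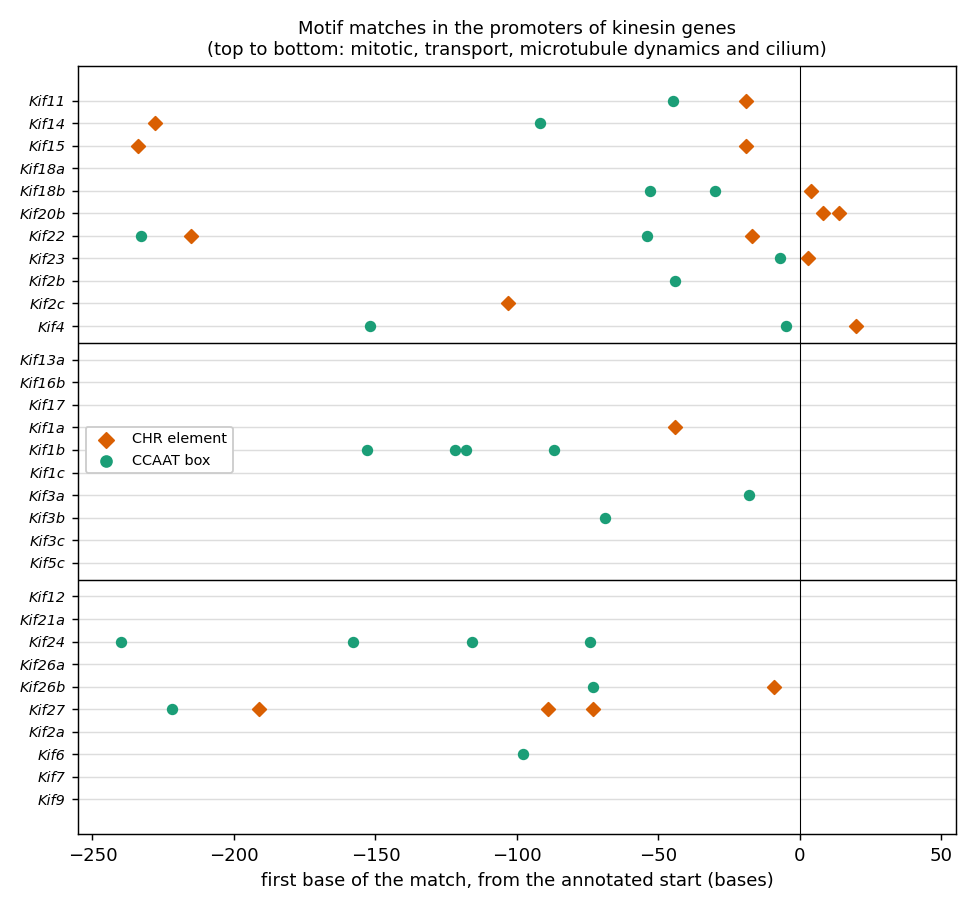
First base of each CHR (diamond) and CCAAT (circle) match in the promoter windows of 31 kinesin genes, in bases from the annotated start, by class from top to bottom; 4 genes with 2 windows show the matches of both, so that sites of Kif1b seen in overlapping windows appear more than once. In 7 mitotic genes a diamond lies within 30 bases of the start, as in 1 gene of the third class (Kif26b) and in no transport gene.

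Transport kinesins were the bulk of kinesin RNA in myotubes. Kif5b, the widely expressed kinesin-1 heavy chain that positions nuclei in muscle, was at 156 FPKM in 2-day myotubes and 95.3 FPKM in growth myoblasts (log2 0.71, SE 0.30, q = 0.0692, the authors' deposited table); this missed the threshold. It was the most abundant kinesin in 2-day myotubes, with 32.6% of kinesin FPKM there and 14.1% in growth myoblasts, where Kif2a stood above it at 98.9 FPKM. Its neuronal relatives were low. Kif5c was at 3.30 FPKM in 2-day myotubes and 5.48 FPKM in growth myoblasts (q = 0.535, the authors' deposited table), and Kif5a was at 0.256 and 0.371 FPKM in the same order and was not tested.

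In the kinesin-3 group Kif1c, a carrier of adhesion and secretory cargo, was at 77.0 FPKM in 2-day myotubes and 60.3 FPKM in growth myoblasts (log2 0.35, SE 0.38, q = 0.572, the authors' deposited table). Kif1b, which carries mitochondria and synaptic vesicle precursors, was at 70.7 FPKM in 2-day myotubes and 47.7 FPKM in growth myoblasts (log2 0.57, SE 0.32, q = 0.209, the authors' deposited table). Together with Kif5b these 2 motors made up 63.6% of kinesin FPKM in 2-day myotubes and 29.99% in growth myoblasts. Kif13a, an endosome motor, was at 13.2 FPKM in 2-day myotubes and 6.53 FPKM in growth myoblasts (log2 1.02, SE 0.61, q = 0.237, the authors' deposited table). The endosome motor Kif16b was at 5.46 FPKM in 2-day myotubes and 5.69 FPKM in growth myoblasts, Kif13b was at 1.80 and 1.06 FPKM in the same order, and the authors' deposited table calls neither. Kif1a, the axonal carrier of synaptic vesicle precursors, was at 2.69 FPKM in 2-day myotubes and 5.62 FPKM in growth myoblasts (log2 -1.06, SE 0.46, q = 0.0756, the authors' deposited table). Markers of neurons and Schwann cells summed to 1.48 FPKM over 9 genes in 2-day myotubes and 5.40 FPKM in growth myoblasts, with Snap25 and Syt1 at 0 in both libraries, and their part in the levels of Kif1a, Kif5a and Kif5c was not tested.

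The kinesin-2 motors, which carry cargo into the cilium and along axons, had no call in either direction. Kif3a was at 24.97 FPKM in 2-day myotubes and 38.1 FPKM in growth myoblasts (log2 -0.61, SE 0.28, q = 0.0940, the authors' deposited table), and its partner Kif3b was at 12.2 FPKM in 2-day myotubes and 18.9 FPKM in growth myoblasts (log2 -0.63, SE 0.62, q = 0.521, the authors' deposited table). Kif3c, the other partner, was at 14.5 FPKM in 2-day myotubes and 13.7 FPKM in growth myoblasts (log2 0.09, SE 0.46, the authors' deposited table). Their accessory subunit Kifap3 was at 30.6 FPKM in 2-day myotubes and 24.2 FPKM in growth myoblasts without a call in the authors' deposited table. Kif17, the single-chain type of this family, was at 1.82 FPKM in 2-day myotubes and 0.467 FPKM in growth myoblasts, and the authors' deposited table gives its log2 ratio an SE of 1.42, too wide to set a direction.

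Light chains and adaptors couple these motors to cargo. Calls of the authors' deposited table placed 2 of 19 tested higher, where 6.52% of all tested genes were, and 1 lower, where 17.3% were, and the median log2(FPKM + 1) ratio was 0.41. Klc2, a kinesin-1 light chain, was at 85.9 FPKM in 2-day myotubes and 39.1 FPKM in growth myoblasts (log2 1.13, SE 0.31, q = 0.00197, the authors' deposited table). Mapk8ip1, the JIP1 scaffold that links kinesin-1 to cargo, was at 22.9 FPKM in 2-day myotubes and 6.61 FPKM in growth myoblasts (log2 1.79, SE 0.49, q = 0.00221, the authors' deposited table). Spag9, another scaffold, was at 23.9 FPKM in 2-day myotubes and 40.1 FPKM in growth myoblasts (log2 -0.74, SE 0.28, q = 0.0373, the authors' deposited table).

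Among 9 tested genes of nuclear positioning the authors' deposited table has 1 higher and 1 lower, where 6.52% and 17.3% of all tested genes were. Syne2, a nesprin of the outer nuclear membrane, was at 1.91 FPKM in 2-day myotubes and 27.2 FPKM in growth myoblasts (log2 -3.83, SE 0.50, q = 1.81e-12, the authors' deposited table). Clip1, a microtubule plus-end protein, was at 27.5 FPKM in 2-day myotubes and 17.8 FPKM in growth myoblasts (log2 0.63, SE 0.22, q = 0.0247, the authors' deposited table). The opposite motor, cytoplasmic dynein with dynactin, had 1 of 23 tested genes called higher, against 6.52% of all tested genes, and 1 lower, against 17.3%, by the authors' deposited table. They were the cargo adaptor Bicd2, at 111 FPKM in 2-day myotubes and 41.1 FPKM in growth myoblasts, and Nde1, a dynein regulator needed by dividing progenitors, at 23.6 FPKM in 2-day myotubes and 68.8 FPKM in growth myoblasts.

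Members of the third class went in both directions. Kif2a, a microtubule depolymerase of spindle and neurite, was the most abundant kinesin in growth myoblasts, at 40.9 FPKM in 2-day myotubes and 98.9 FPKM in growth myoblasts (log2 -1.27, SE 0.39, q = 0.00704, the authors' deposited table). Its 2.42-fold fall was well short of the 12.6-fold fall of its relative Kif2c. It shares its locus with Dimt1, so that reads of the pair may be hard to separate. Kif24, a centriolar member of the same family that holds back cilium growth, was at 12.4 FPKM in 2-day myotubes and 17.1 FPKM in growth myoblasts (log2 -0.47, SE 0.31, q = 0.303, the authors' deposited table).

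In the kinesin-4 family, paralogs went opposite ways. Kif21b, a slow motor that limits microtubule growth in neurons and lymphocytes, was at 4.11 FPKM in 2-day myotubes and 0.707 FPKM in growth myoblasts (log2 2.54, SE 0.85, q = 0.0161, the authors' deposited table). Kif21a, its relative, was at 2.73 FPKM in 2-day myotubes and 5.36 FPKM in growth myoblasts (log2 -0.97, SE 0.39, q = 0.0499, the authors' deposited table), a call at the very edge of the threshold. Kif27, linked to motile cilia, was at 0.163 FPKM in 2-day myotubes and 0.970 FPKM in growth myoblasts (log2 -2.58, SE 0.85, q = 0.0145, the authors' deposited table). Kif7, the hedgehog regulator at the cilium tip, was at 1.27 FPKM in 2-day myotubes and 3.67 FPKM in growth myoblasts (log2 -1.53, SE 0.74, q = 0.126, the authors' deposited table). The difference between Kif21b and Kif21a was not tested. After centring, the calls of Kif2a, Kif21a and Kif27 were lost, at adjusted p of 0.105, 0.354 and 0.0533 recomputed over the log2 ratios and SEs of the authors' deposited table.

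Kif26a, an atypical kinesin without motor activity that restrains growth factor signals in enteric neurons, had the largest rise of any kinesin called. It was at 1.57 FPKM in 2-day myotubes and 0.109 FPKM in growth myoblasts (log2 3.84, SE 0.82, q = 4.51e-05, the authors' deposited table). Its paralog Kif26b was at 0.764 FPKM in 2-day myotubes and 1.57 FPKM in growth myoblasts (log2 -1.04, SE 0.73, q = 0.336, the authors' deposited table). Of the ciliary kinesins, Kif9 was at 0.873 FPKM in 2-day myotubes and 1.16 FPKM in growth myoblasts and was not called. Kif19a was at 0.937 FPKM in 2-day myotubes and 0.0561 FPKM in growth myoblasts and was not tested, and Kif6 and Kif12 were listed at 0 in both libraries. Markers of ciliated cells summed to 0.685 FPKM over 4 genes in 2-day myotubes and 1.80 FPKM in growth myoblasts, and their part in these values was not tested.

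MyoD peaks were joined to kinesin loci of the expression table where a summit lay inside the locus or within 10 kb. Of the 32 tested kinesins 13 had a peak (40.6%), against 38.8% of all tested genes. By class these were 4 of 11 mitotic (36.4%), 5 of 12 transport (41.7%) and 4 of 9 further members (44.4%). Kinesin loci are long, with a median of 62.5 kb against 26.4 kb for all tested genes, and long loci catch more peaks. By locus length, a peak was found at 1 of 1 tested kinesin of up to 20 kb, against 23.8% of all tested genes of that length, and at 0 of 10 of 20 to 50 kb, against 38.4%. It was found at 4 of 11 of 50 to 100 kb, against 47.6%, at 5 of 6 of 100 to 200 kb, against 64.6%, and at 3 of 4 above 200 kb, against 71.3%. The kinesins were thus above the share of all genes in some length ranges and below it in others. With the 5 untested members included, 16 of 37 kinesins had among them 25 peaks, of which 19 lay inside the locus. Of the 25 peaks, 5 had a false discovery rate of at most 5% in the authors' peak list, as did 19.4% of all 10756 peaks listed. The tag count, fold enrichment and rate of a peak are the authors' values, and coordinates are in mm9.

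The 2 kinesins called higher had no peak, where 58.5% of all genes called higher had one, but 2 genes are too few to set against that share. Their loci, of 35.5 kb (Kif26a) and 46.6 kb (Kif21b), fall in the 20 to 50 kb range, where 38.4% of all tested genes had a peak. Of the 14 kinesins called lower 6 had a peak, against 38.3% of all genes called lower. The nearest summit to Kif26a was 32.3 kb away and that to Kif21b 48.1 kb away, and Kif5b had none nearer than 12.6 kb. At the mitotic genes no summit lay close to the 5' end of the locus. For Kif4 and Kif18b that locus is shared with other genes, and its end need not be their own start. The Kif4 peak, chrX:97911347-97911982 with 13 tags and 35.9-fold enrichment, lay 93.4 kb into a locus of 104 kb that Kif4 shares with Pdzd11. The Kif15 peak, chr9:122930132-122930980 with 26 tags, and the Kif22 peak, chr7:134164993-134165509 with 11 tags, lay past the far ends of their genes by 2.55 kb and 5.99 kb. The 4 peaks at Kif18b, of 7 to 30 tags, lay 98.2 to 221 kb into a locus of 263 kb that holds 6 other tested genes, so that they cannot be assigned to Kif18b.

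Only 1 of the 21 peaks at a kinesin with a known strand lay within 1 kb of the 5' end, that upstream of Kif26b by 0.971 kb, chr1:180457983-180458458 with 15 tags and 16.8-fold enrichment. Kif26b had 3 more peaks inside its locus of 404 kb, of 9 to 12 tags. The highest fold enrichment was at Kif24, 45.0-fold from 20 tags at chr4:41407789-41408243, 4.01 kb into the gene with a rate of 2.08%, and a second Kif24 peak lay 17.1 kb in. Kif24 was called in neither direction in the authors' deposited table.

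Among transport genes, Kif5c held a peak of 18 tags and 26.3-fold enrichment at chr2:49597227-49597818, 123 kb into the gene, with a rate of 3.81%. Kif1b held a pair of weak peaks of 11 and 13 tags about 25 kb in, chr4:148656309-148656573 and chr4:148657031-148657470. Kif16b held 1 of 15 tags, 163 kb in, and Kif13b 2 of 7 tags each. The peaks assigned to Kif3c and Kif5a lay outside those genes, by 7.75 and 4.43 kb, inside the loci of Asxl2 and Dctn2. Kif21a had 1 peak of 15 tags, Kif27 1 of 9 tags, Kif6 1 of 7 tags and Kif19a 1 of 29 tags that lay 4.68 kb outside its locus.

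**Figure D5:**
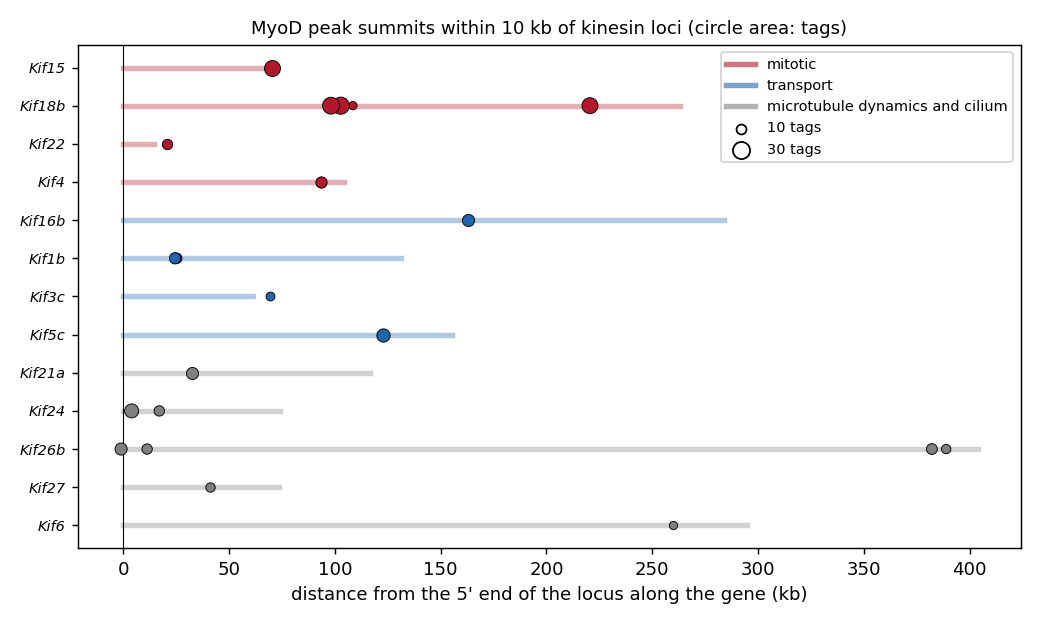
MyoD peak summits within 10 kb of kinesin loci whose strand is known, as the distance in kb from the 5' end of the locus along the gene; pale bars are loci and the area of a circle is the tag count. Only the Kif26b peak at -0.971 kb lies within 1 kb of a 5' end. The mitotic peaks lie 20.7 kb or more from the 5' end of their locus, which Kif4 and Kif18b share with other genes.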

How the data were processed

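RNA values were FPKM as deposited by the authors, with a single value for a gene in each condition, in a table of the Cuffdiff kind; Cuffdiff, CASAVA 1.7.0 and mm9 are in the submitters' processing notes. The table was deposited in 2 identical copies and 1 was used. Its p-values and q-values are those of the authors. The sources used here do not give the aligner, the annotation release, the scaling setting or how the duplicates that the labels' protocols mention were combined. Read totals are unknown; among 2931 untested genes above 0 in both libraries the most frequent ratio put growth myoblasts at 1.08 times the depth of 2-day myotubes. Peaks were called by the authors with MACS, per the file headers, from 8637045 ChIP and 9129012 control tags in total. The headers give 4049890 ChIP and 4371189 control tags as unique. Each peak has a tag count, a fold ratio over background, a p-value score and a false discovery rate in percent, per the file headers. The MyoD sample is described in its labels as taken from an earlier sample, and the listed antibodies do not include one to MyoD. Of the 7 samples, 4 from histone ChIP were not used here.

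SEs are the authors' log2 ratio over their test statistic, whose sign runs opposite to it in all 15416 genes with both. Centred calls used these SEs, a normal p and the Benjamini-Hochberg method. The method was run on data simulated from the same SEs, which cannot show whether those SEs are right. Medians used log2(FPKM + 1) and a mean of at least 1 FPKM. Gene lists were matched by symbol, 6 genes through Ensembl IDs; Kif28, under the symbol Gm1305, is outside the rule. Named are members called, those of at least 10 FPKM in a library and those with a peak, and of related lists the 3 largest calls each way. Members and lists were chosen with earlier results of these data known. Python 3.11.15, pandas 2.3.3 and scipy 1.17.1 were used.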

Additional observations from a re-analysis of the deposited data

How the results depend on the processing

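The 11 mitotic calls lower were kept at q of at most 0.01, after centring and among genes with a mean of at least 1 FPKM. Another alternative, chosen after seeing the data, left out the members that share a locus with another tested gene. All 7 mitotic members that remained were called lower, so none lost its call. Of the 23 kinesins that remained in all, 9 were called lower, against 17.3% of all tested genes. Of the 32 tested kinesins, 1 was called higher at q of at most 0.01, against 4.68% of tested genes, and 4 after centring, against 10.2%. With the FPKM minimum, which Kif26a does not reach, 1 was called higher. At q of at most 0.01 Kif21a, Kif27 and Kif21b lost their calls. After centring, 2 of 12 tested transport kinesins were called higher, against the same 10.2%. In the third class 1 of 9 tested members was called lower at q of at most 0.01, against 11.1% of tested genes, and 1 higher, against 4.68%. After centring 0 were called lower, against 10.3%, and with the FPKM minimum 1 was called higher. With a pseudocount of 5 the mitotic median was -1.74 and the difference from transport -1.85. Without members that share a locus the transport median was -0.051, the opposite sign. After centring, Kif16b was at 0.35 and Kif9 at 0.0057, the opposite sign; neither was called. Kinesins with a peak were 21 at 50 kb (65.6%, against 59.9% of tested genes), 4 with a false discovery rate of at most 5% (12.5% against 11.7%) and 7 at 20-fold enrichment or more (21.9% against 13.6%). The other settings kept each count within 1.5 times its value and each median within the median SE of its class. No paired analysis was possible because each group has 1 sample. Calls of genes below about 1 FPKM, such as Kif26a and Kif27, rest on few reads.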
